A study of Homo sapiens with 2 samples.

Results

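Nuclear receptors are transcription factors that bind DNA through a zinc finger domain and, in many members, switch their activity when a small fat-soluble ligand such as a steroid, thyroid hormone, retinoic acid or vitamin D occupies their ligand-binding domain. Some act as dimers with a retinoid X receptor, some with a copy of themselves and some as single molecules, and orphan receptors have no settled natural ligand. In squamous epithelium, retinoid and vitamin D receptors are known for their part in the balance of growth and differentiation, whereas NR5A1 (steroidogenic factor 1) is known from the adrenal cortex, the gonads and the pituitary, where it drives steroid hormone genes. The genes described here are 46 human nuclear receptor genes, found in the deposited tables by Entrez identifier, out of 40392 Entrez genes in all. They were taken by family, except that the family was picked with the large difference of NR5A1 between the libraries already known, so that difference is given as a description. In that sense the family was chosen by the RPKM of NR5A1 in both libraries, while no other member's values chose it. Earlier results of these data were known when the members and the gene lists below were chosen, so their counts are descriptions too.

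The tables come from KYSE30, an established line of esophageal squamous cell carcinoma, sequenced as total RNA after depletion of ribosomal RNA. The mock library was made from stable transfectants that carry pIRES2-EGFP, and the RHCG library from ones that carry an expression vector for human RHCG, an ammonium transporter. The labels do not say whether the transfectants were clones or pools. With 1 library per group there was no replicate spread and no test, so every difference is between these 2 libraries. Differences between cultures or clones cannot be told apart from an effect of RHCG, nor fewer cells expressing a gene from less RNA per cell.

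Levels are in RPKM, reads per kilobase of transcript scaled to sequencing depth, which can be compared between genes of different length. The scaling of the tables corresponded to about 18900000 reads for mock and 22100000 for RHCG, so a transcript of 1 kb at 1 RPKM rested on about 18.9 and 22.1 reads. Depths larger by a factor of 2 fit about as well, as described under processing. No value between 0 and 1 RPKM was listed, and a gene listed at 0 could have been low, absent or not counted; GLUL and HSPH1, which cells express generally, were at 0 in both tables. RHCG itself, listed at 0 in mock cells, reached 413 RPKM in RHCG cells, the difference that the labels describe. Of 12 markers of squamous epithelium, 11 were listed in at least 1 library, KRT5 being the exception, with a summed level of 1856 RPKM in mock and 1725 in RHCG cells. That sum is carried by ITGB4, at 778 and 1009 RPKM. Of the 11, 4 were lower past 2-fold and 0 higher, against 3.3% and 2.74% of all 12857 genes compared. The 4 were KRT6A, at 38.8 and 3.51 RPKM, KRT15, at 101 and 27.3, KRT13, at 407 and 164, and SOX2, at 23.1 and 9.62. Their part in the differences described here was not tested. All 11 markers of steroidogenic cells, 5 of endothelium, 6 of simple columnar epithelium and 4 of hepatocytes were at 0 in both libraries. Of 6 fibroblast and 5 leukocyte markers, 2 and 1 were listed, with sums of 2.45 and 1.44 RPKM and of 15.4 and 8.89 RPKM.

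NR5A1 is the member on which the comparison turns, and its promoter is shown beside that of its closest relative NR5A2, because both encode single-molecule receptors of the same DNA element and yet stood far apart in level. The sequences are the 250 bases before the annotated start, from RefSeq on GRCh38.p14, a later build than the hg19 named for the deposited values. NR5A1 lies on the minus strand at chr9:124507400-124507649 and NR5A2 on the plus strand at chr1:200027460-200027709. Capitals mark every match, on either strand, to the palindromic E-box CACGTG, to the CCAAT box, whose reverse complement reads ATTGG, and to the nuclear receptor half-site AGGTCA, whose reverse complement reads TGACCT.
NR5A1: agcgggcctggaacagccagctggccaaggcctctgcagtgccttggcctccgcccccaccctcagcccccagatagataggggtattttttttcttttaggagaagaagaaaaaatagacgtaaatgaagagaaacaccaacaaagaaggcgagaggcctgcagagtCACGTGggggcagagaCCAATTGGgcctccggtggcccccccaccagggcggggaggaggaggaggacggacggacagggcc
NR5A2: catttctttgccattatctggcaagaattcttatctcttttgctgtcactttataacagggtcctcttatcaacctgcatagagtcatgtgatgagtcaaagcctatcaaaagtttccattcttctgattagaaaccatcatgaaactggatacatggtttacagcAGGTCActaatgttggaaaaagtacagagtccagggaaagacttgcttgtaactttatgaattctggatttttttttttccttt

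In the NR5A1 window the E-box lay 82 to 77 bases before the start, and CCAAT boxes on the printed strand (66 to 62 bases before it) and on the other strand (63 to 59) overlapped each other. The E-box was found in 6.34% of 35116 promoter windows of the same length and in 3 of the 41 member windows that the table holds, those of NR5A1, NR2C1 and NR2F2. The CCAAT box was in 32.0% of all windows and in 15 of the 41. The half-site AGGTCA was in 12.1% of all windows and in 7 of the 41, among them NR5A2, where it lay 84 to 79 bases before the start, PPARG, RARA and NR1H3. The longer NR5A element CAAGGTCA (TGACCTTG on the other strand), which contains the half-site, was in 1.14% of all windows and in 0 of the 41. Such matches are letters in a window, and the tables do not show where transcripts started.

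Of the 46 genes, 24 were listed above 0 in both libraries, 3 in mock cells alone and 0 in RHCG cells alone. The 27 listed genes are 58.7% of the members, close to the 59.7% of protein-coding genes listed in at least 1 library. The other 19 were at 0 in both: RARB, RORA, RORB, NR1H4, NR1I2, NR1I3, HNF4A, HNF4G, RXRG, NR2E1, NR2E3, ESR2, ESRRB, ESRRG, PGR, NR4A2, NR4A3, NR0B1 and NR0B2. They include the bile acid and xenobiotic receptors of liver and gut (NR1H4, NR1I2 and NR1I3), both HNF4 genes, and NR0B1 and NR0B2, which encode receptors without a DNA-binding domain that repress other members. Ratios of RHCG over mock were taken as log2 with 1 RPKM added to each level and 0 set to 1 RPKM, and a gene past 2-fold is called higher or lower. By this rule 1 of 27 members was higher (NR5A1) and 0 were lower, where 2.74% of 12857 tested genes were higher and 3.3% lower. The higher share carries the gene for which the family was picked, so nothing is read from it. A log2 ratio below 0 was found for 19 of the 27, against 50.5% of all tested genes, and the median of the 27 was −0.24 against −0.01 over all. Of the 24 listed in both libraries 16 lay below 0, and the other 3 of the 19 were below it through the 1 RPKM floor.

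**Figure D1:**
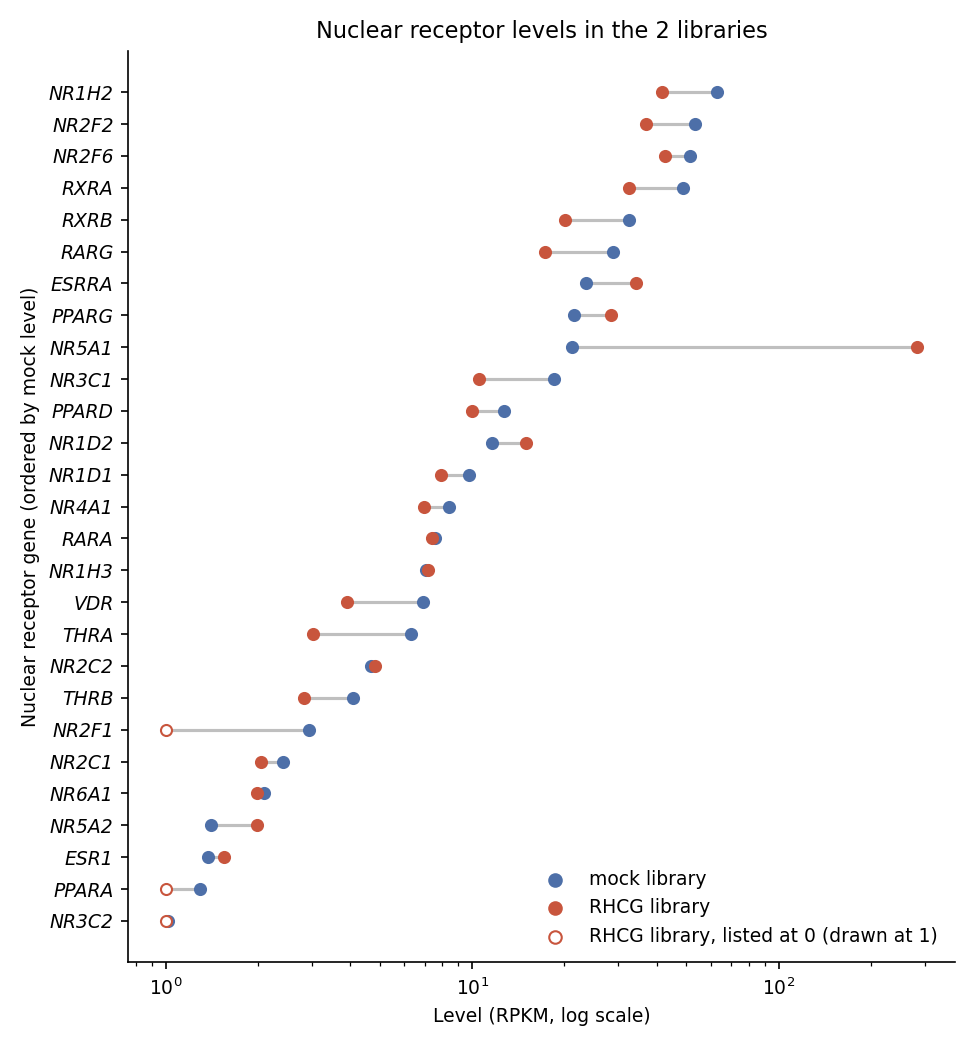
Level of the 27 listed nuclear receptor genes in the mock (blue) and RHCG (red) libraries, in RPKM on a log axis, 1 value per library; open circles at 1 mark genes listed at 0 in RHCG cells. NR5A1 ran from 21.2 to 283 RPKM, and most of the other genes lay somewhat lower in RHCG cells.

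NR5A1 (Entrez gene 2516, chromosome 9) stood at 21.2 RPKM in mock cells, ninth in level among the members, and at 283 RPKM in RHCG cells, where it was first. The step was 13.3-fold, with an approximate 95% counting interval of 12.6 to 14.1 from about 1375 and 21363 reads. These intervals are exact binomial (Clopper-Pearson) ones from approximate read numbers and cover counting error only, not differences between cultures. On the log2 scale with 1 RPKM added the ratio was 3.68. A larger one was found for 2 of 12857 tested genes, among them the transfected gene RHCG (7.69). Among protein-coding genes its rank by level was 3312 of 11201 listed in mock cells and 117 of 10968 in RHCG cells. It held 4.68% of the summed RPKM of all members in mock cells and 45.4% in RHCG cells, while the sum of the others was 432 and 341 RPKM. No exon of another annotated gene overlapped those of NR5A1.

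NR5A2 (liver receptor homolog 1, known from liver, pancreas and ovary) was at 1.40 RPKM in mock cells and 1.99 in RHCG cells. That is 1.42-fold (1.19 to 1.70), with about 201 and 332 reads, and neither value was far above the lowest level the tables list. NR6A1 (germ cell nuclear factor) is the next protein-coding gene on chromosome 9 after NR5A1 and was at 2.09 and 1.99 RPKM, a difference within counting error (interval of the fold 0.809 to 1.12). Neither of these close relatives of NR5A1 passed 2-fold. Of the 5 protein-coding genes on each side of NR5A1, 9 of 10 were listed, with log2 ratios between −1.12 and 0.21 and a median of −0.06. The one called lower was LHX2, a homeobox gene, at 4.33 and 1.45 RPKM. PSMB7, a proteasome subunit, was at 158 and 143 RPKM and OLFML2A at 17.9 and 17.3 RPKM. The median ratio over the 51 genes around NR5A1 was 0.09, and with it removed NR5A1 stood at 3.58.

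**Figure D2:**
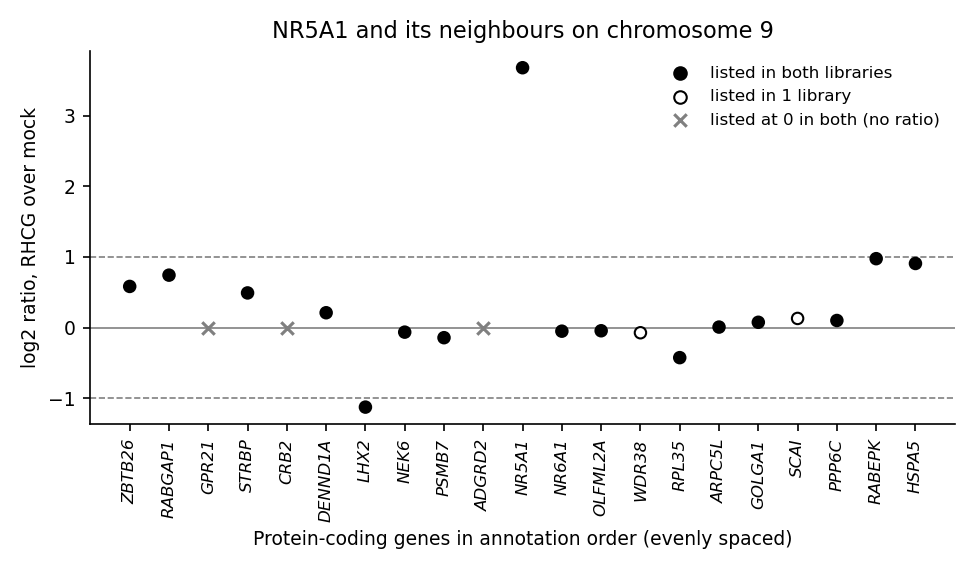
Log2 ratio of RHCG over mock for NR5A1 and the 10 protein-coding genes on each side of it on chromosome 9, evenly spaced in annotation order; filled points are listed in both libraries, open ones in 1, crosses in neither, and dashed lines mark 2-fold. NR5A1 stands at 3.68, and the 17 listed neighbours lie between −1.12 and 0.98.

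What NR5A1 controls in steroid-producing tissue was mostly at 0 here. Of 30 genes for NR5A1 targets and steroid hormone synthesis, 19 were at 0 in both libraries, among them STAR, which carries cholesterol into mitochondria, CYP11A1, which cuts its side chain, CYP17A1, CYP19A1 (aromatase), HSD3B2, INHA and the ACTH receptor gene MC2R. The 19 include all the steroidogenic cell markers given above, so those zeros are not a separate observation. Of the 11 target genes listed, none was higher and 2 were lower, against 2.74% and 3.3% of all tested genes. Their median was −0.22. With so few genes and so small a share, nothing is read from the lack of higher ones. AMH, anti-Müllerian hormone, was at 7.28 and 2.75 RPKM (log2 ratio −1.14), and LHB, the luteinizing hormone beta chain, at 3.83 and 1.14 RPKM (−1.18). LHB has near-identical chorionic gonadotropin copies beside it, so its reads are uncertain. With the shift of neighbouring genes removed, AMH stood at −0.99 and LHB at −0.65, and neither passed 2-fold. SOX9, a gonadal and chondrocyte factor that epithelia also express, was at 23.5 and 47.4 RPKM, just short of the rule at 0.98 and past it at 1.06 with the neighbour shift removed. Under that setting the list had 1 gene higher and 0 lower. FDX1 and FDXR, redox partners of steroid enzymes, had 2.43 and 3.25 RPKM and 24.4 and 20.7 RPKM.

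Among the other 26 listed receptors none passed 2-fold on this scale, and their ratios ran from −0.98 (NR2F1) to 0.53 (ESRRA). At 1.5-fold, 7 of the 27 were lower, against 11.5% of all tested genes, and NR5A1 alone was higher, against 11.3%. The 7 were THRA, RARG, NR1H2, VDR, RXRB, NR2F1 and NR3C1. With the median shift of 51 chromosomal neighbours removed 4 were lower at 1.5-fold, namely THRA, THRB, NR2F1 and NR2F2. THRB and NR2F2, at −0.593 and −0.592, were only just past that mark. RARG, NR1H2, VDR, RXRB and NR3C1 passed it only with the shift left in. With the shift removed RXRB, at −0.562, was only just short of it. The share of all genes at 1.5-fold was not computed with the shift removed.

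**Figure D3:**
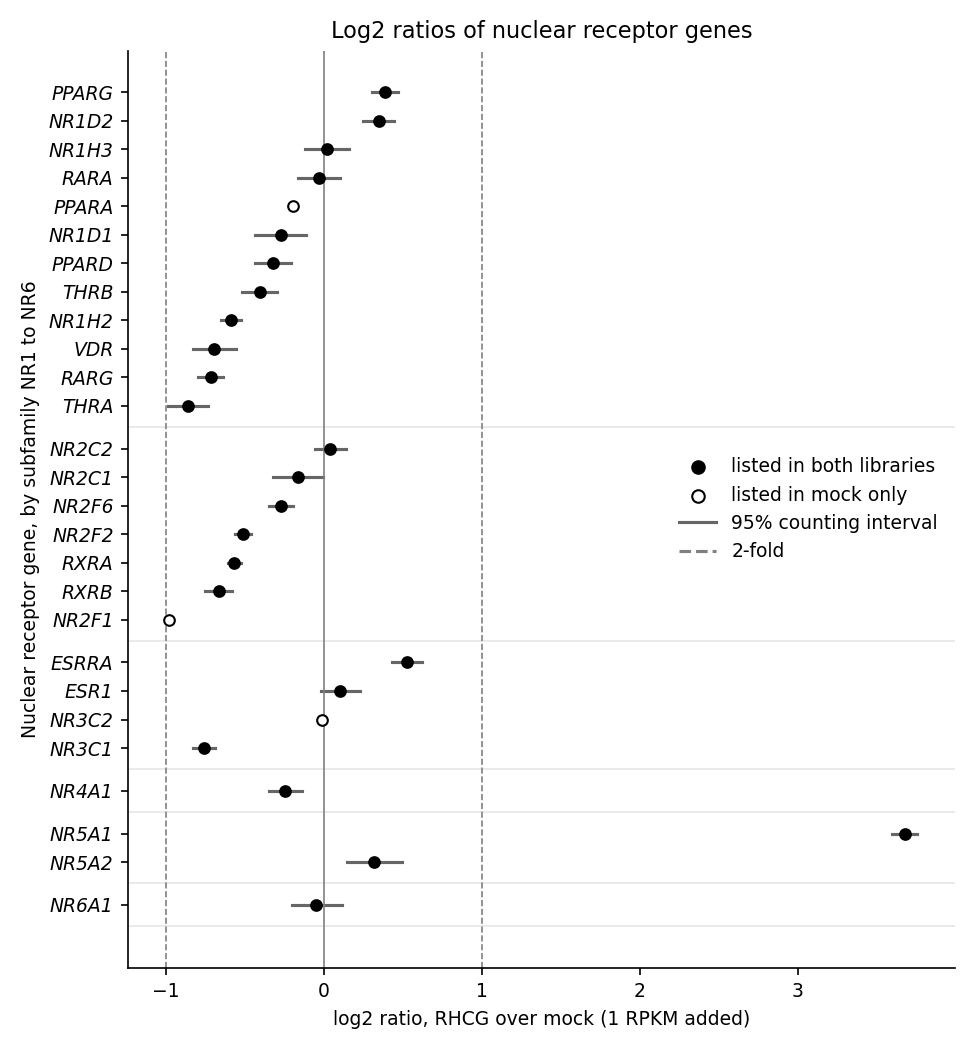
Log2 ratio of RHCG over mock for the 27 listed nuclear receptor genes by subfamily; bars are approximate 95% counting intervals, open points are genes listed in mock cells alone, whose ratio rests on the 1 RPKM floor, and dashed lines mark 2-fold. NR5A1 stands at 3.68 and the other 26 lie between −0.98 and 0.53.

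The retinoid X receptors, obligate partners of many other members, were both lower in RHCG cells by less than 2-fold. RXRA was at 48.6 RPKM in mock cells and 32.5 in RHCG cells, 1.49-fold lower (1.45 to 1.54). RXRB was at 32.4 and 20.04 RPKM, 1.61-fold lower (1.52 to 1.72). The remaining RXR gene, RXRG, was at 0 in both.

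Of their partners, the retinoic acid receptors differed from each other. RARG, the main retinoic acid receptor of skin and other squamous epithelia, was at 28.9 RPKM in mock and 17.2 in RHCG cells, 1.68-fold lower (1.58 to 1.78). RARA was at 7.53 and 7.37 RPKM, a difference inside its counting interval (0.978-fold, 0.881 to 1.09). RARB, often silent in squamous carcinoma, was at 0 in both. In the list of 20 genes for retinoid handling and retinoic acid targets, 12 were listed. Of these 1 was higher and 2 were lower, against 2.74% and 3.3% of all tested genes, and the median was −0.21. ALDH1A3, which makes retinoic acid from retinaldehyde, was at 219 and 86.3 RPKM (log2 ratio −1.33). DHRS3, which turns retinaldehyde back into retinol and is itself induced by retinoic acid, was at 173 and 81.8 RPKM (−1.07). STRA6, the cell surface receptor that takes up retinol, was higher, at 2.42 and 6.99 RPKM (1.22). Members of this list thus passed 2-fold in both directions.

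VDR, the vitamin D receptor, was at 6.91 RPKM in mock cells and 3.90 in RHCG cells, 1.77-fold lower (1.58 to 1.99). CYP24A1, the enzyme that breaks down vitamin D and the usual marker of VDR activity, was at 0 in both. Of 11 vitamin D genes 4 were listed. Of these 1 was higher and 0 lower, against 2.74% and 3.3% of all tested genes. The one called higher was THBD, thrombomodulin of the anticoagulant pathway, at 1.81 and 5.43 RPKM (log2 ratio 1.20). The median of these 4 genes, 0.03, takes either sign with the processing.

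Both thyroid hormone receptor genes lay below 0. THRA was at 6.33 RPKM in mock cells and 3.03 in RHCG cells, 2.09-fold lower as a plain ratio (1.86 to 2.34) and −0.86 on the scale with 1 RPKM added, so it passed 2-fold only where less was added. Exons of THRA and of NR1D1 on the opposite strand share 263 bases, 3.78% of the exonic length of THRA and 9.49% of that of NR1D1, and the sources used here do not say whether reads were counted by strand. THRB was at 4.07 and 2.83 RPKM, 1.44-fold lower (1.30 to 1.60). Of 10 thyroid hormone genes only HR was listed, a corepressor of thyroid and vitamin D receptors known for its part in hair growth. HR was lower, at 7.57 and 1.43 RPKM (log2 ratio −1.82). All 3 deiodinase genes were at 0.

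None of the lipid-sensing receptor genes passed 2-fold. PPARG, the adipocyte and epithelial PPAR, was at 21.5 RPKM in mock cells and 28.4 in RHCG cells, 1.32-fold higher (1.25 to 1.40). PPARD, the widely expressed PPAR, was at 12.7 and 9.97 RPKM, 1.28-fold lower (1.17 to 1.39). PPARA was at 1.29 RPKM and at 0, which is too near the lowest listed level for a ratio. Of 13 PPAR target genes 7 were listed, with a median of −0.27. Of these 0 passed 2-fold in either direction, where 2.74% of all tested genes were higher and 3.3% lower. The most abundant were ACADVL, at 214 and 177 RPKM, and HADHA, at 54.2 and 47.2 RPKM, both enzymes of mitochondrial fatty acid oxidation.

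NR1H2, the widely expressed liver X receptor that senses oxysterols, had the highest level of all members in mock cells, 63.0 RPKM, and stood at 41.6 RPKM in RHCG cells, 1.52-fold lower (1.45 to 1.58). The 51 genes around it on chromosome 19 had a median ratio of −0.47, and with it removed NR1H2 stood at −0.12. NR1H3 was at 7.04 and 7.16 RPKM, a difference within counting error. Of 8 LXR target genes 6 were listed, with a median of −0.25. None passed 2-fold, where 2.74% of all tested genes were higher and 3.3% lower. All 6 lay below 0, against 50.5% of all tested genes, but ABCA1 (1.10 RPKM and 0) and SMPDL3A (1.78 and 0) only through the 1 RPKM floor, and LPCAT3 was within counting error (0.878 to 1.02). SCD, the stearoyl-CoA desaturase, was at 765 and 616 RPKM and SREBF1, the fatty acid synthesis factor, at 212 and 185 RPKM.

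The circadian repressors NR1D1 and NR1D2 lay on either side of 0. NR1D1 was at 9.76 RPKM in mock and 7.91 in RHCG cells (0.810-fold, 0.714 to 0.919), with the overlap with THRA noted above. NR1D2 was at 11.6 and 15.01 RPKM (1.30-fold, 1.21 to 1.39). Their activating counterparts RORA and RORB, which bind the same element, were at 0 in both libraries. Of 18 clock genes 16 were listed. Of these 2 were higher and none was lower, against 2.74% and 3.3% of all tested genes. Their median was 0.24, against −0.01 over all. NFIL3, a repressor of D-box genes, was at 10.03 and 38.3 RPKM (log2 ratio 1.83), and BMAL2, a partner of CLOCK, at 2.87 and 8.08 RPKM (1.23).

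NR3C1, the glucocorticoid receptor, was at 18.5 RPKM in mock cells and 10.5 in RHCG cells, 1.76-fold lower (1.66 to 1.86). The genes around it on chromosome 5 had a median ratio of −0.38, and with it removed NR3C1 also stood at −0.38. NR3C2, the mineralocorticoid receptor, was at 1.01 RPKM and at 0. Of 14 glucocorticoid target genes 11 were listed, 2 of them higher and 0 lower, against 2.74% and 3.3% of all tested genes. Their median was 0.22. TSC22D3 (GILZ), a leucine zipper protein that glucocorticoids induce, was at 4.69 and 24.7 RPKM, 5.26-fold higher (4.74 to 5.84). ERRFI1, a feedback inhibitor of EGF receptors, was at 63.5 and 162 RPKM (log2 ratio 1.33). FKBP5, another usual target, was at 1.51 and 1.93 RPKM and PER1 at 7.16 and 10.1 RPKM, and neither passed 2-fold. Of the 11 listed targets 7 lay above 0 and 4 below, while the receptor gene lay below.

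Other steroid receptors were low. ESR1, the estrogen receptor alpha gene, was at 1.38 and 1.55 RPKM, a difference within counting error, and ESR2 and PGR were at 0. Of 11 estrogen receptor targets 5 were listed, and TFF1, GREB1 and PGR, their defining members, were at 0. The 2 called higher were XBP1, at 55.7 and 140 RPKM, which is also a factor of the unfolded protein response, and IGFBP4, listed at 0 in mock cells and at 3.07 RPKM in RHCG cells. Over all tested genes 2.74% were higher. The list count and its median of 0.80 rest on only 5 genes. ESRRA, an orphan receptor of mitochondrial genes, was at 23.5 RPKM in mock cells and 34.3 in RHCG cells, 1.46-fold higher (1.36 to 1.56). After NR5A1 it had the highest ratio of the members. Its exons share 284 bases, 9.37% of their length, with TRMT112 on the opposite strand.

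The COUP-TF genes, orphan receptors of development and vessel identity, all lay below 0. NR2F2 was at 53.1 RPKM in mock cells and 37.0 in RHCG cells, 1.44-fold lower (1.39 to 1.49). NR2F6 was at 51.3 and 42.4 RPKM, 1.21-fold lower (1.14 to 1.28). NR2F1 was at 2.94 RPKM and at 0, and its log2 ratio of −0.98 is set by the 1 RPKM floor. It passed 2-fold with 0.1 RPKM added (−1.47), with 0 read as 0 RPKM (−1.98) and with the neighbour shift removed (−1.16). The testicular receptors NR2C1, at 2.41 and 2.04 RPKM, and NR2C2, at 4.67 and 4.83 RPKM, differed little; exons of NR2C2 share 10.1% of their length with MRPS25 on the opposite strand. NR4A1, an immediate early orphan receptor, was at 8.42 and 6.96 RPKM (0.827-fold, 0.761 to 0.898), and NR4A2 and NR4A3 were at 0.

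**Figure D4:**
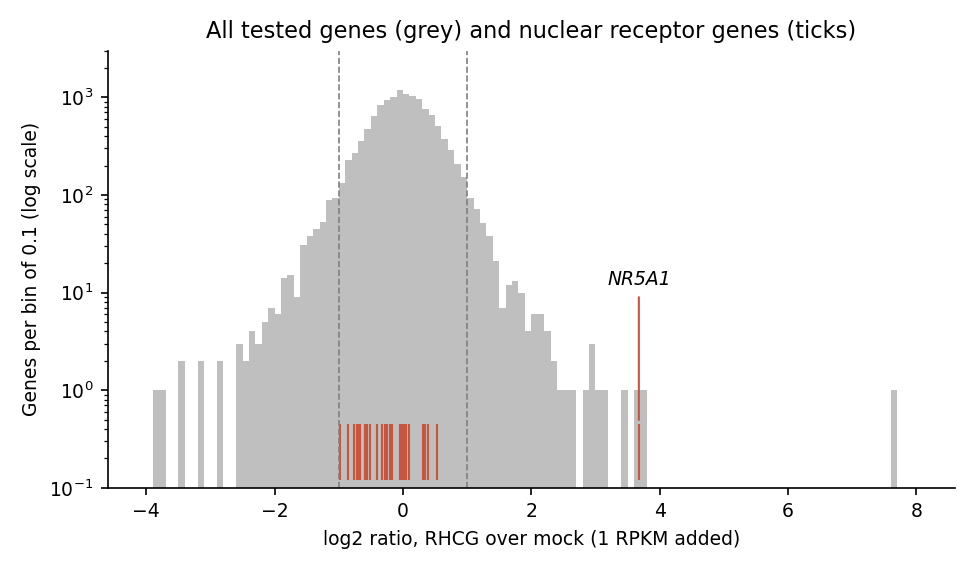
Number of tested genes per bin of 0.1 in log2 ratio of RHCG over mock (grey, log axis, 12857 genes), with a red tick for each of the 27 listed nuclear receptor genes and dashed lines at 2-fold. NR5A1 stands at 3.68 in the upper tail, and the other ticks lie between the dashed lines with 19 of 27 below 0.

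Genes for proteins that work with the receptors were listed almost without gaps in at least 1 library. Of 18 coactivator genes 17 were listed, KAT2B and PPARGC1B in mock cells alone, and the median was 0.04. Of the 17 listed, 0 passed 2-fold, where 2.74% of all tested genes were higher and 3.3% lower. The most abundant were the arginine methyltransferase genes PRMT1, at 155 and 154 RPKM, and CARM1, at 37.6 and 34.6 RPKM. Of 15 corepressor genes all were listed and 1 was lower, against 3.3% of all tested genes. This was TRIM28, a scaffold for heterochromatin factors, at 335 and 165 RPKM (log2 ratio −1.01). TRIM28 stood at −0.55 with the neighbour shift removed. The median of the corepressors was 0.01, and NCOR1, a classical corepressor, did not pass 2-fold, at 42.7 and 58.3 RPKM.

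Of 15 genes for chaperones that fold steroid receptors 3 were lower and 0 higher, against 3.3% and 2.74% of all tested genes. The list was chosen with earlier results of these data known, so these counts are a description. In the same list 13 lay below 0, against 50.5% of all, BAG1 and FKBP5 lay above it, and the median was −0.56. The 3 were HSPA8 (log2 ratio −2.09), HSP90AA1 (−1.88) and the Hsp40 gene DNAJA1, at 59.1 and 19.4 RPKM (−1.56). Of 11 bile acid and xenobiotic receptor targets only UGT1A1 was listed, at 3.41 and 4.29 RPKM, and it shares its last exons with the other UGT1A genes.

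**Figure D5:**
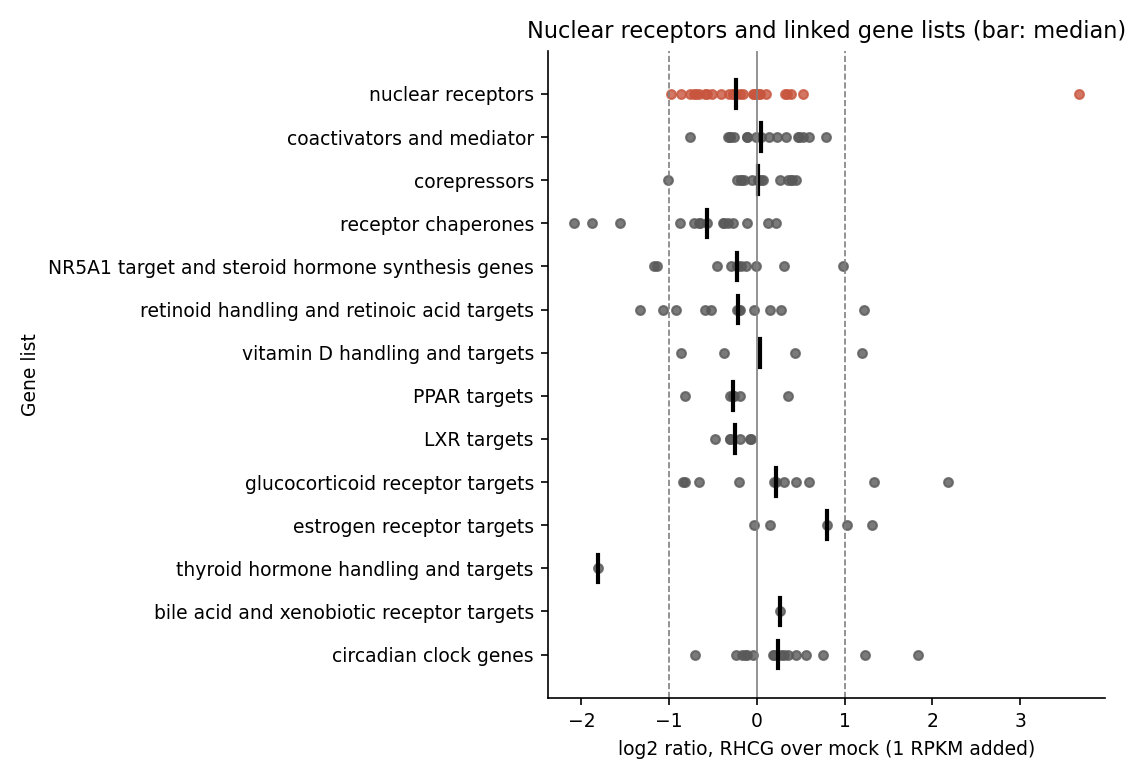
Log2 ratio of RHCG over mock for the listed nuclear receptor genes (red) and for the listed genes of 13 linked lists (grey), with a black bar at each median and dashed lines at 2-fold. The receptor chaperones have a median of −0.56 and the coactivators and corepressors of 0.04 and 0.01; 2 of the lists hold only 1 listed gene each.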

How the data were processed

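Total RNA of 2 stable KYSE30 transfectants, 1 library per group, was sequenced after ribosomal RNA depletion with the Ion Total RNA-Seq kit, per the labels' protocols. The submitters' processing notes name hg19 and bedtools 2.25.0; the sources used here do not give the aligner, the counting method or the use of strand. Each library has 1 deposited table headed RPKM by the authors, whose values are log2 of RPKM with none below 0. That scale was checked on small RNA genes: of their unlogged values times length, 26.0% of 181 in mock and 38.2% of 173 in RHCG lay within 0.01 reads of whole multiples of 1 constant, against 1.66% and 1.73% at the median constant searched. The other 74.0% and 61.8% did not, so the depth, read numbers and counting intervals drawn from that constant are approximate. A constant smaller by a factor of 2 fitted 26.5% and 42.8%, in part by construction, since it divides every whole multiple of the first. The larger constant was used. Read numbers larger by that factor, with narrower counting intervals, would fit about as well. Counts could not be recovered.

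Of 40448 rows, those with a copy suffix (112) were summed by Entrez gene. Symbols came from RefSeq. Genes listed above 0 in at least 1 library were tested by the size rule, log2((RHCG + 1)/(mock + 1)) in RPKM past 2-fold, with 0 set to 1 RPKM and a least mean of 1 RPKM. Since the tables hold no counts and each group is 1 library, the size rule planned for RPKM was used and no p-value is given. Approximate reads used GENCODE exonic lengths. Neighbour shifts were medians over 51 protein-coding genes, each averaging 3 RPKM or more. The members and the 13 gene lists were chosen with earlier results of these data known. Named genes were every listed member, up to 4 called genes of each list or its 2 most abundant, RHCG and 5 neighbours of NR5A1 on each side; other genes named with values were chosen after those were seen. The software was scipy 1.17.1, pandas 2.3.3, numpy 2.4.6 and matplotlib 3.10.9 under Python 3.11.15.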

Additional observations from a re-analysis of the deposited data

How the results depend on the processing

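NR5A1 was called higher, and was the only member called higher, under all 9 other settings. The same held for 1 setting added after the data were seen (no value added, over genes listed in both libraries). Its log2 ratio ran from 3.58 to 3.74. Several settings could not change its call: 1.5-fold only loosens the rule, and leaving out the filter kept the same 12857 genes. Taking 1 row per gene left every member's ratio as it was. The family was picked for NR5A1, so this is a description. The number of members called lower, 0 as reported, was 2 (THRA and NR2F1) with 0.1 RPKM added, 1 (NR2F1) with genes listed at 0 set to 0 RPKM or with the neighbour shift removed, 1 (THRA) with no value added, and 7 at 1.5-fold. Counts over all genes, 352 higher and 424 lower, became 533 and 673 with 0.1 RPKM added and 1447 and 1481 at 1.5-fold; both settings loosen the rule by construction. At 1.5-fold, where 11.3% of all tested genes were higher and 11.5% lower, the coactivators had 2 of 17 higher and 1 lower. The chaperones had 0 of 15 higher and 7 lower, and the NR5A1 target list 1 of 11 higher and 2 lower. The retinoid list had 1 of 12 higher and 4 lower, and the glucocorticoid list 3 of 11 higher and 3 lower. The vitamin D list had 1 of 4 higher and 1 lower, and the PPAR list 0 of 7 higher and 1 lower. The clock list had 3 of 16 higher and 1 lower, and the estrogen list 3 of 5 higher and 0 lower. The NR5A1 target list had 1 higher (SOX9) with 0.1 RPKM added, with no value added and with the neighbour shift removed, 1 lower with the 5 RPKM filter and 0 lower with the neighbour shift removed, which also left 0 corepressors lower. The filter at a mean of 5 RPKM left fewer genes, with 0 higher in the retinoid and vitamin D lists and 1 in the estrogen list, and no thyroid gene at all. With no value added, 1 gene was lower in each of the vitamin D, PPAR and glucocorticoid lists and 1 higher in the estrogen list, and with 0.1 RPKM added 1 vitamin D gene was lower.

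Medians outside their counting error, in which genes listed in 1 library have no interval of their own, were those of the coactivators (0.14 with the 5 RPKM filter, with 0 as 0 RPKM and with the neighbour shift removed, and 0.16 with no value added), the vitamin D list (−0.088 with 0.1 RPKM added, 0.44 with 0 as 0 RPKM, with the 5 RPKM filter and with no value added, and 0.18 with the neighbour shift removed), the LXR targets (−0.30 with the neighbour shift removed), the estrogen targets (0.65 with the neighbour shift removed and 0.48 with no value added) and HR, the single thyroid gene (−2.32 with 0.1 RPKM and −2.40 with no value added). Both scalings shifted all genes by less than 0.02 on the log2 scale. Beyond what a setting does by construction, the cause was not tested. Of 349 values for 40 single genes with a counting interval, 307 lay inside it and 42 outside, and no called gene turned its sign. PPARA, NR2F1, NR3C2 and IGFBP4, each listed in 1 library, have no such interval. No paired analysis was possible because each group had a single library, and for the same reason no library could be left out.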
